A study of Mus musculus with 15 samples.

Results

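The 10 genes described here are Cd40, Traf1, Nfkb2, Relb, Nfkbia, Tnfaip3, Birc3, Ccl5, Icam1 and Bcl3, taken from the 24346 genes of an expression table by their symbols. They cover a receptor, an adaptor, transcription factor subunits, inhibitors and targets of the NF-kB pathway. They were chosen with their levels in all groups known, so those levels are given as a description, with no test. The table holds 15 RNA sequencing libraries of C57BL/6 mouse brain cells in 5 groups of 3. D0 was cultured astrocytes. D4, D8 and D16 were cells labelled as chemically induced neurons at 4, 8 and 16 days, and PN was primary neurons. The labels name neither the inducing compounds nor the age of the donor mice, and they do not say whether the libraries of a group came from separate cultures. The p-values below therefore measure only the spread between these libraries, which may be technical.

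NF-kB is a family of dimeric transcription factors held inactive in the cytoplasm by IkB proteins. In the canonical arm, receptors for tumour necrosis factor, interleukin 1 and Toll ligands act through adaptors and the IkB kinases to release dimers with Rela. In the non-canonical arm, a few receptors, Cd40 among them, stabilise the kinase Map3k14, which leads to processing of the Nfkb2 precursor and to Nfkb2 and Relb dimers. Several target genes, such as Nfkbia and Tnfaip3, encode inhibitors that close the loop. Astrocytes are known to use the pathway in inflammatory responses, in which they make chemokines and adhesion molecules.

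Promoter sequences were matched for 7 of the 10 genes, namely Traf1, Nfkb2, Nfkbia, Tnfaip3, Birc3, Icam1 and Bcl3, in RefSeq annotation of build GRCm38.p6. Each window ran from 250 bases before to 50 bases after an annotated start. The kappa B consensus, a 10-base motif bound by NF-kB dimers, was searched on both strands. It occurred in 4 of the 7 genes, which are shown because they are the members whose promoters carry the motif that names the pathway. Capitals mark matches to the consensus, and every sequence reads 5′ to 3′ along the gene's own strand. For Nfkb2 and Tnfaip3 the window of 1 annotated start is shown. The Nfkbia window is chr12:55492598-55492897 on the minus strand, the Nfkb2 window is chr19:46304487-46304786 on the plus strand, the Tnfaip3 window is chr10:19015361-19015660 on the minus strand and the Bcl3 window is chr7:19822706-19823005 on the minus strand.
Nfkbia: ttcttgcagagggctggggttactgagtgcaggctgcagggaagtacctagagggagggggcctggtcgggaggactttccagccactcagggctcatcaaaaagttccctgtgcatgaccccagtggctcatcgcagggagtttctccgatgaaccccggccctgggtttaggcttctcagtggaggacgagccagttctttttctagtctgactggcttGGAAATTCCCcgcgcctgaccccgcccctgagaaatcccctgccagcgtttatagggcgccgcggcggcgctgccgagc
Nfkb2: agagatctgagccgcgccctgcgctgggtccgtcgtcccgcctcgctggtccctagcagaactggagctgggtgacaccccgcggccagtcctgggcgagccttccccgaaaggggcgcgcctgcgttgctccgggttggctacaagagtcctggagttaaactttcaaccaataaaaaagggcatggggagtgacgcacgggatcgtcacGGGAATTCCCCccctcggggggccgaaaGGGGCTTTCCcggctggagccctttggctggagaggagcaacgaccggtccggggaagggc
Tnfaip3: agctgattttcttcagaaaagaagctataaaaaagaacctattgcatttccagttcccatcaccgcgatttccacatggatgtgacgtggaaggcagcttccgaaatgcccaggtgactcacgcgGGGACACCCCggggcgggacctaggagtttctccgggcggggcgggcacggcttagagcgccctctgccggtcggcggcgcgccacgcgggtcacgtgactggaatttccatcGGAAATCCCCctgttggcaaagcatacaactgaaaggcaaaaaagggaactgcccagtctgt
Bcl3: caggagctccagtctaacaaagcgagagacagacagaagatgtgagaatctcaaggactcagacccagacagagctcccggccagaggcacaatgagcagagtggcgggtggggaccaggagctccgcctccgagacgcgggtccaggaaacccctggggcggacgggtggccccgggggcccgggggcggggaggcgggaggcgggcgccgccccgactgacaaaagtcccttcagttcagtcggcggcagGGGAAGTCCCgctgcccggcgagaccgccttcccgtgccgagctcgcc
Counted from the annotated start, the first base of the match lay at -29 in Nfkbia and at 2 in Bcl3, and the matches in Tnfaip3 began at -125 and -12. In the Nfkb2 window shown, a pair of overlapping matches began at -39 and -38 and another match began at -11. Nfkb2 has 2 further windows that are not shown, with matches at -236 and 10 in one and at -225 in the other. The annotated position of Nfkb2 begins at chr19:46300994, before all of its windows, and no window was matched there. Tnfaip3 has 1 further window, with no match. Of the 17191 genes with a promoter in RefSeq, 5.61% held the consensus in at least 1 window, and among the other genes of the pathway 28 of 132 did (21.2%). These matches are letters in a window and were not tested for binding. As the levels below show, the 4 genes with the consensus did not share one course over the induction.

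Summed over genes, the FPKM of a library came to 548309 to 787080, with 11861 to 12907 genes at 1 FPKM or more. FPKM does not hold the number of reads. The commonest ratio of low values put the depth of the libraries at 0.707 to 2.04 times that of D0 replicate 1, which is a rough estimate. Libraries correlated with the others of their group at 0.968 to 0.987 on average, lowest in D16 replicate 2 and PN replicate 3. The 9 astrocyte markers summed to 715 to 1649 FPKM at D0, 55.4 to 68.2 at D16 and 149 to 272 in PN. The 8 neuron markers summed to 281 to 392 FPKM at D0, 931 to 968 at D16 and 3098 to 4267 in PN. Most of the sum at D0 was Stmn2, which averaged 304 FPKM there, 213 at D16 and 1205 in PN. Without Stmn2 the sum was 30.8 to 74.2 FPKM at D0 and 714 to 739 at D16. In bulk RNA, fewer cells of a type and less RNA per cell cannot be told apart.

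Cd40, a receptor of the tumour necrosis factor receptor family best known from B cells and other antigen-presenting cells, was the member with the largest change. It lies at chr2:165055614-165071654 (GRCm38.p6), as do all positions below in that build. At D0 its level was 0.319, 0.270 and 0.301 FPKM in replicates 1, 2 and 3. At D4 it was 37.7, 83.1 and 44.0 FPKM, at D8 72.8, 397.8 and 137.2 FPKM, and at D16 144.8, 293.2 and 127.1 FPKM. In PN it was listed at 0 in 2 libraries and at 0.225 FPKM in the other. Every induced library lay above every D0 and PN library, and the D8 and D16 libraries overlapped. The mean at D4, 55.0 ± 24.6 FPKM (SD, n = 3), was 185 times that at D0, 0.297 ± 0.0247 FPKM. At D8 the mean was 203 ± 172 FPKM, a 682-fold ratio, and at D16 188 ± 91.2 FPKM, a 634-fold ratio. On the log2(FPKM + 1) scale, which understates the change of a gene this low at D0, the differences from D0 were 5.35, 6.94 and 7.09 at D4, D8 and D16, each with a standard error of 0.47. Standard errors here and below are from the fit across all groups, which takes a common spread for each gene. They do not follow the wider spread of single groups, such as D8 here. Without replicate 2 of the induced group, the library with the highest value each time, the differences were 5.01, 6.28 and 6.72.

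**Figure D1:**
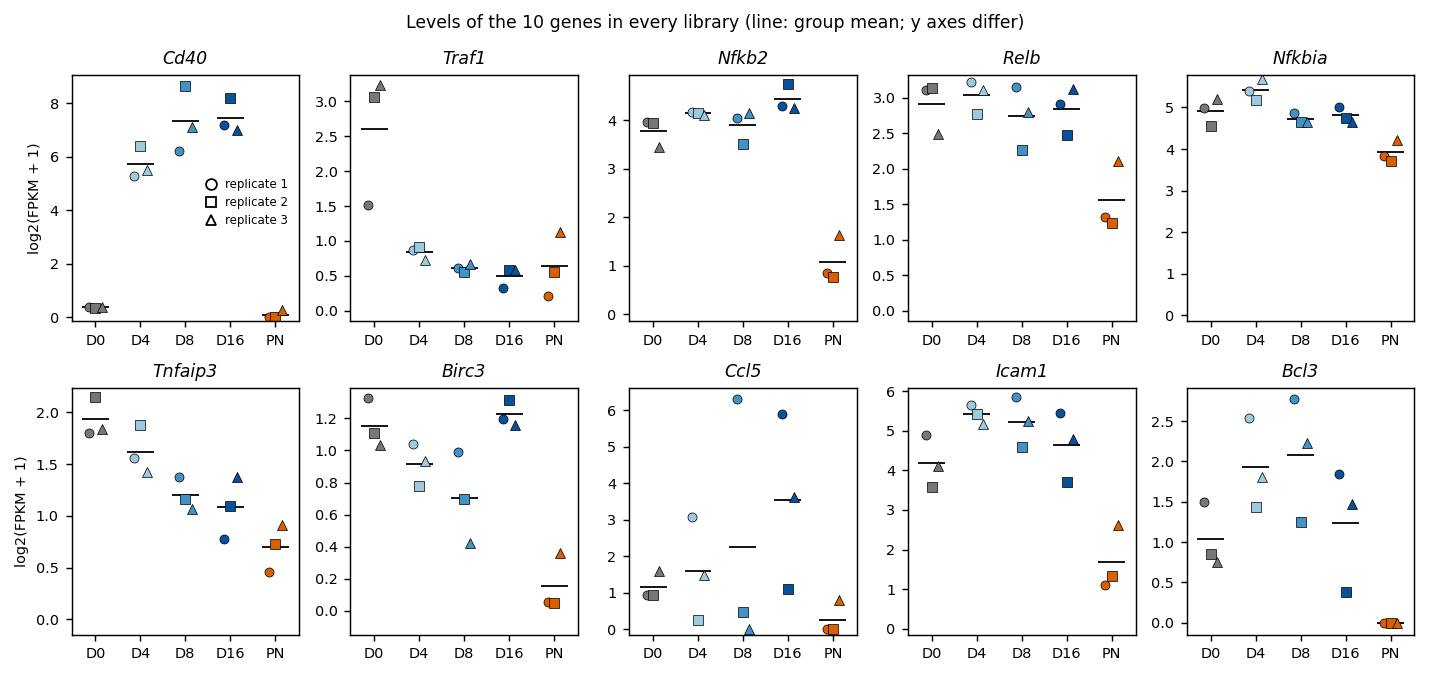
Each panel plots 1 gene, with the level on a log2(FPKM + 1) axis against the group. Symbols are single libraries, shaped by replicate number, and lines are group means of 3. Cd40 sits near 0 at D0 and PN and between 5 and 9 in the 9 induced libraries, while the other 9 genes stay within a far smaller range or, for Ccl5, scatter within groups.

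The genes whose course over the 15 libraries was most like that of Cd40 were Mcoln1 (r = 0.986), Sh3bgrl2 (0.984), Tmem87a (0.983), Foxf1, Lhfpl2 and Gla (0.982 each), of 11286 genes ranked. These are descriptions over libraries that share their group differences. Foxf1 averaged 0.276 FPKM at D0 and 7.74 FPKM at D16, and Mcoln1 averaged 21.9 and 145.6 FPKM.

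Because Cd40 is usually studied in immune cells, the markers of such cells were read beside it. Of 13 B cell and antigen-presenting cell markers, 1 averaged at least 1 FPKM at D0, 3 at D4, 2 at D8 and 2 at D16, and their summed level was 2.70 to 5.30 FPKM at D0, 14.1 to 17.1 at D4, 18.8 to 23.5 at D8, 12.6 to 23.3 at D16 and 0.578 to 2.44 in PN. Most of that sum in the induced groups was H2-Ab1, a chain of the MHC class II complex, at 0.412 ± 0.263 FPKM at D0 and 15.7 ± 4.78 FPKM at D16 (SD, n = 3). Cd80, a costimulatory ligand and the highest gene of the list at D0, was at 2.27 ± 0.832 FPKM there and at 0.241, 0.129 and 0.0802 FPKM on average at D4, D8 and D16. The B cell marker Ms4a1 was listed at 0 in all 9 induced libraries, and Cd79a was at most 0.312 FPKM. Of 16 microglia and macrophage markers, 5 averaged at least 1 FPKM at D0 and 2 at D4, D8 and D16. Their summed level was 23.7 to 48.1 FPKM at D0, 224 to 432 at D4, 197 to 658 at D8, 198 to 726 at D16 and 14.2 to 24.5 in PN. Nearly all of it in the induced groups was Cd68, a glycoprotein of lysosomes that is abundant in macrophages, which averaged 17.5 FPKM at D0 and 437 FPKM at D16. Without Cd68 the sum was 2.17 to 34.7 FPKM at D0, 4.40 to 5.88 at D4, 3.70 to 5.89 at D8 and 2.66 to 4.99 at D16. The microglia and macrophage markers Ptprc and Itgam were at most 0.130 and 0.651 FPKM at D0, 0.0531 and 0.0358 FPKM at D16 and 0.177 and 0.174 FPKM in PN. At D16 Aif1 was at most 0.760 FPKM, and Cx3cr1 and P2ry12 were listed at 0. Tmem119 was the exception, at 0.288 ± 0.123 FPKM at D0 and 4.13 ± 0.397, 3.62 ± 0.560 and 2.90 ± 0.732 FPKM at D4, D8 and D16. Besides Cd68, the markers that averaged at least 1 FPKM at D0 were Tyrobp, C1qa, C1qb and C1qc, at 5.39, 3.08, 1.90 and 3.14 FPKM. The D0 libraries differed widely, with Tyrobp from 0.597 to 9.58 FPKM. At D16 they averaged 0, 0.0473, 0 and 0 FPKM. These genes, Cx3cr1, P2ry12 and Tmem119 were picked out after their values were seen. Cd68, H2-Ab1 and Tmem119 were thus higher in the induced groups, as Cd40 was. Cd80, Tyrobp, C1qa, C1qb and C1qc were lower there on average than at D0, and Ptprc and Itgam were low in all groups. The part of other cell types in the level of Cd40 was not tested. Of 8 endothelial markers 2 averaged at least 1 FPKM at D16, with a sum of 8.08 to 9.55 FPKM, against 2.04 to 4.09 at D0, 5.39 to 8.63 at D4, 4.37 to 11.7 at D8 and 0.975 to 4.77 in PN. Most of it at D16 was Flt1, at 7.30 FPKM, with Pecam1 at most 0.117 and Cdh5 at most 0.0701 FPKM. The 6 T cell markers summed to 0.336 to 0.530 FPKM at D0, 0.746 to 1.94 at D4, 0.877 to 1.29 at D8, 0.596 to 0.941 at D16 and 3.05 to 3.72 in PN, with Lck the highest of them and Cd3e at most 0.104 FPKM.

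Cd40lg, which encodes the ligand of Cd40, was listed at 0 in all 15 libraries. Tnf was listed at no more than 0.114 FPKM in any library. Neither passed the filter for testing, which asked for 1 FPKM in 3 libraries.

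Nfkb2 and Relb encode the non-canonical subunits. Nfkb2 (chr19:46300994-46312400) was at 14.5, 14.3 and 9.88 FPKM at D0. It was at 17.0, 16.7 and 16.2 FPKM at D4, 15.5, 10.4 and 16.7 at D8, 18.5, 25.8 and 18.2 at D16 and 0.804, 0.692 and 2.11 in PN. All D4 and D16 libraries lay above D0, while D8 overlapped D0, and PN lay below every other group. Relative to D0 the log2 difference was 0.36 ± 0.24 (SE) at D4, 0.12 ± 0.24 at D8 and 0.65 ± 0.24 at D16. The mean at D16, 20.9 ± 4.31 FPKM (SD, n = 3), was 1.62 times that at D0, 12.9 ± 2.62 FPKM. Relb (chr7:19606217-19629438) was at 7.67, 7.83 and 4.63 FPKM at D0, 8.38, 5.83 and 7.62 at D4, 7.86, 3.82 and 5.98 at D8, 6.55, 4.57 and 7.71 at D16, and 1.50, 1.35 and 3.33 in PN. The 4 astrocyte and induced groups overlapped one another, and PN lay below them. At D16 the log2 difference from D0 was -0.08 ± 0.28 (SE), and in PN it was -1.36 ± 0.28. Neither subunit gene came near the change of Cd40.

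Bcl3 (chr7:19808462-19822824) encodes an atypical IkB protein of the nucleus that binds dimers of the smaller subunits. Its level was 1.82, 0.802 and 0.678 FPKM at D0, 4.79, 1.70 and 2.49 at D4, 5.83, 1.37 and 3.67 at D8, and 2.59, 0.302 and 1.78 at D16. It was listed at 0 in all 3 PN libraries. Each induced group overlapped D0, and replicate 1 was the highest and replicate 2 the lowest library at all 3 times. The log2 difference from D0 was 0.89 ± 0.40 (SE) at D4, 1.05 ± 0.40 at D8 and 0.20 ± 0.40 at D16.

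Nfkbia (chr12:55489409-55492647), which encodes IkB alpha, the main inhibitor of the canonical arm and itself a fast target, had the highest level at D0 of the 10 genes. It was at 30.5, 22.5 and 35.7 FPKM at D0, 41.4, 35.2 and 50.8 at D4, 28.4, 24.1 and 24.0 at D8, 31.5, 25.8 and 24.3 at D16, and 13.2, 12.1 and 17.6 in PN. The D4 libraries overlapped D0 by 1 library and lay above D8 and D16. The log2 difference from D0 was 0.52 ± 0.19 (SE) at D4, -0.19 ± 0.19 at D8, -0.10 ± 0.19 at D16 and -0.99 ± 0.19 in PN. Tnfaip3 (chr10:19000910-19015410) encodes A20, a ubiquitin-editing enzyme that ends signalling. It was at 2.49, 3.45 and 2.59 FPKM at D0, 1.94, 2.68 and 1.68 at D4, 1.59, 1.24 and 1.09 at D8, 0.711, 1.14 and 1.59 at D16, and 0.376, 0.655 and 0.878 in PN. D8, D16 and PN lay below D0 with no overlap, and D16 overlapped PN. On the log2 scale it differed from D0 by -0.73 ± 0.20 (SE) at D8, -0.85 ± 0.20 at D16 and -1.23 ± 0.20 in PN. Both inhibitors carry the consensus in the windows printed above, and their levels at D8 and D16 were at or below those at D0.

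Traf1 (chr2:34941750-34961812) encodes an adaptor of the receptor complexes that is commonly induced by NF-kB. It was at 1.86, 7.34 and 8.37 FPKM at D0. At D4 it was at 0.827, 0.881 and 0.654 FPKM, at D8 at 0.527, 0.472 and 0.596, at D16 at 0.252, 0.499 and 0.508, and in PN at 0.162, 0.478 and 1.19. All induced and PN libraries lay below all D0 libraries, and the 3 induced groups spanned 0.252 to 0.881 FPKM. The log2 difference from D0 was -1.77, -1.99 and -2.10 at D4, D8 and D16 and -1.96 in PN, each with a standard error of 0.34. Traf1 was therefore opposite to Cd40 in direction, and their levels over the 15 libraries correlated at -0.52. Birc3 (chr9:7847468-7873205), a ubiquitin ligase that works with the TRAF adaptors, was at 1.51, 1.15 and 1.05 FPKM at D0, 1.05, 0.713 and 0.914 at D4, 0.985, 0.623 and 0.337 at D8, 1.29, 1.49 and 1.23 at D16, and 0.0373, 0.0335 and 0.281 in PN. It was below D0 without overlap at D8, overlapped D0 at D4 and D16, and was lowest in PN. At D8 the log2 difference from D0 was -0.45 ± 0.17 (SE), and at D16 it was 0.07 ± 0.17.

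Icam1 and Ccl5 are targets whose products act outside the cell. Icam1 (chr9:21015940-21028814), an adhesion molecule for leukocytes, was at 28.5, 11.1 and 16.2 FPKM at D0, 48.8, 42.1 and 35.1 at D4, 56.5, 22.9 and 36.9 at D8, 42.8, 12.1 and 26.5 at D16, and 1.15, 1.54 and 5.12 in PN. The D4 libraries lay above D0, D8 and D16 overlapped D0, and PN lay below all of them. The log2 difference from D0 was 1.22 ± 0.47 (SE) at D4, 1.03 ± 0.47 at D8, 0.46 ± 0.47 at D16 and -2.51 ± 0.47 in PN. Ccl5 (chr11:83525778-83530518), a chemokine for T cells and monocytes, was at 0.914, 0.901 and 2.01 FPKM at D0. It was at 7.36, 0.201 and 1.83 FPKM at D4, 77.7, 0.389 and 0 at D8, and 58.3, 1.16 and 11.3 at D16, and in PN at 0, 0 and 0.740. Within each induced group replicate 1 was the highest, and every induced group overlapped D0. Its log2 difference from D0, 1.11 ± 1.35 (SE) at D8 and 2.39 ± 1.35 at D16, had the widest error of the 10 genes. Without replicate 1 of the induced group it was -0.91 at D8 and 1.21 at D16, so that single library set the D8 mean.

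**Figure D2:**
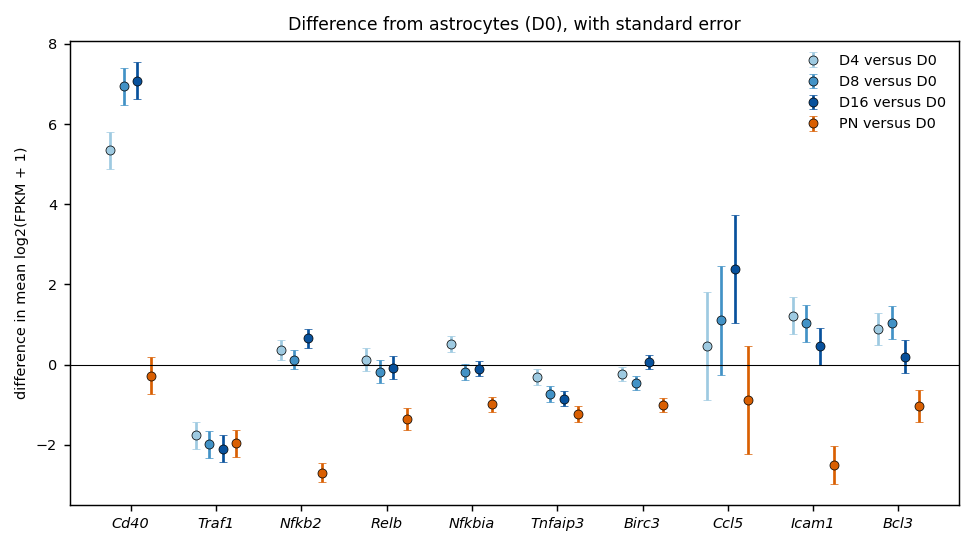
The plot shows, for each gene, the difference in mean log2(FPKM + 1) from D0 for D4, D8, D16 and PN, with bars for the standard error of the fit across all groups (n = 3 per group). Cd40 stands at 5.35 to 7.09 in the induced groups, Traf1 near -2 in all 4 groups, and all 10 genes are below 0 in PN.

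All 10 genes passed the filter on low values. Relative to D0, 3 of them were higher at D4 without overlap (Cd40, Nfkb2 and Icam1) and 1 was lower (Traf1). Over all 13983 tested genes, 30.9% were higher and 31.7% lower without overlap at D4. At D8, 1 was higher (Cd40) and 3 were lower (Traf1, Tnfaip3 and Birc3), beside 32.7% and 32.8% of all genes. At D16, 2 were higher (Cd40 and Nfkb2) and 2 lower (Traf1 and Tnfaip3), beside 33.0% and 33.8%. In PN all 10 were lower than at D0 without overlap, beside 38.5% of all genes. Between D16 and PN, 8 were higher at D16 without overlap, beside 35.3%, and Traf1 and Tnfaip3 overlapped. The median log2 difference from D0 was 0.41 at D4, -0.03 at D8, 0.13 at D16 and -1.13 in PN, against -0.01, 0.00, -0.01 and -0.12 over all tested genes. The comparisons with D0 share its 3 libraries, and the members were chosen on these groups, so nothing beyond the levels is read from the counts.

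The members also differed within the induced groups, in a way that the groups do not account for. Cd40 was highest in replicate 2 at D4, D8 and D16. Relb was lowest in replicate 2 at all 3 times, and Ccl5, Icam1 and Bcl3 were highest in replicate 1 at all 3 times. Over the 9 induced libraries, the deviations of log2(FPKM + 1) from the group mean correlated at -0.99 between Cd40 and Relb. The correlation was -0.92 between Cd40 and Bcl3, -0.77 between Cd40 and Ccl5 and -0.76 between Cd40 and Icam1. Of the 9 pairs of Cd40 with another member 8 were negative. These include values near 0 or weak, for Tnfaip3 (-0.000719), Nfkb2 (-0.28) and Birc3 (-0.32). The share of negative values over all tested genes was not taken, so the count is not read as a trait of the members. In contrast, Relb and Bcl3 deviated together at 0.92 and Icam1 and Bcl3 at 0.91. The correlation of Cd40 and Relb stayed between -0.998 and -0.982 when any 1 induced library or any 1 of the 3 times was left out, and that of Cd40 and Bcl3 between -0.950 and -0.895. Each of these sets kept replicate 2 libraries, the only ones above their group mean for Cd40. The check therefore cannot separate the correlations from the replicate number. The group means were also kept as taken over all 3 libraries, so a left-out library still shaped the deviations of the others. Part of the stability is thus built in. Cd68 was likewise highest in replicate 2 at all 3 times, at 426, 655 and 723 FPKM, and lowest in replicate 1, at 218, 193 and 194 FPKM. Its deviations correlated at 0.85 with those of Cd40 and at -0.93 with those of Ccl5. Libraries with more Cd40 than their group mean thus had less Relb and Bcl3 and more Cd68. These are 9 libraries of 3 times with no p-value, and the pairs were picked out after their values were seen.

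**Figure D3:**
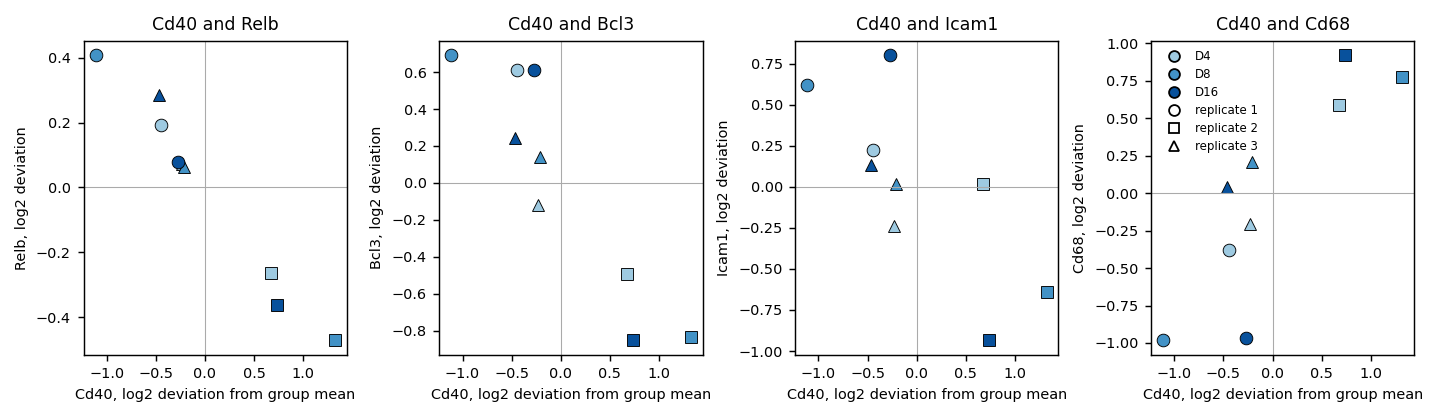
Each panel plots, for the 9 induced libraries, the deviation of Cd40 from its group mean in log2(FPKM + 1) on the x axis against that of Relb, Bcl3, Icam1 or Cd68 on the y axis, coloured by time and shaped by replicate number. The 3 replicate 2 libraries lie at the right in every panel, at the bottom for Relb and Bcl3 and at the top for Cd68.

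Libraries of D4 and D8 with the same number also deviated together over all tested genes, at 0.329 to 0.454, against -0.497 to 0.114 for different numbers. Between D8 and D16 the same-number correlations were -0.0553 to 0.160. The labels do not say what the number stands for. D8 replicate 2 also had the highest FPKM total, 787080. The part of a shared culture or library batch in the pattern was not tested.

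Across all 15 libraries, where group differences dominate, 27 of the 45 pairs of members correlated above 0.5 and 5 below 0. Nfkb2 and Relb correlated at 0.89 and Icam1 and Bcl3 at 0.90. Cd40 correlated with the other members at -0.52 to 0.68. The gene most like Nfkb2 was Rbpms2 (r = 0.987), that most like Icam1 was Spp1 (0.980) and that most like Traf1 was Daam2 (0.964). Tnfaip3 was most like Slc43a3 (0.954), Bcl3 Mina (0.951), Birc3 Wapal (0.942), Relb Arnt (0.940), Nfkbia Ptgs2 (0.938) and Ccl5 Gm11127 (0.866). The ranking took only tested genes with at least 5 FPKM in 3 libraries, so Traf1, Tnfaip3, Birc3 and Bcl3 could not appear as nearest genes. None of the other members was the nearest gene of a member.

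The rest of the pathway was read from 167 genes in 8 lists by role, of which 113 passed the filter. Genes were called when the adjusted p of the fit across all genes was below 0.05 and the log2 change at least 1 in size. At D16, 10 of the 113 were higher than at D0 and 31 lower, or 8.85% and 27.4%, beside 16.6% and 18.7% of all tested genes. Their median log2 change was -0.45, against -0.01 over all tested genes. At D8, 11 were higher and 31 lower, beside 15.5% and 16.9% of all genes. At D4, 13 were higher and 24 lower, beside 13.6% and 14.2%.

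Among the 6 tested subunit and IkB genes, 1 rose and 1 fell at D16. The gene that rose was the IkB gene Nfkbie, from 1.60 to 4.45 FPKM on average (log2 change 1.07, adjusted p = 0.000131). Nfkb1, which encodes the p105 precursor and the p50 subunit, fell from 13.6 ± 0.652 FPKM at D0 to 5.89 ± 1.46 FPKM (SD, n = 3), a log2 change of -1.10 ± 0.27 (SE) with an adjusted p of 0.00225. Without D16 replicate 2 the change was -0.98 and was no longer called. Rela, the main activating subunit of the canonical arm, was at 38.1 ± 2.23 FPKM at D0 and 19.3 ± 2.41 FPKM at D16. Its change of -0.95 ± 0.20 (adjusted p = 0.000708) was just under the minimum, which it passed without D16 replicate 2 at -1.04. Rel stayed out of the test, with 0.489 to 0.688 FPKM at D0 and 0.652 to 1.27 FPKM at D16. Nfkb1 and Rela thus had lower levels at D16, while Nfkb2 and Relb were near or above their D0 levels.

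Of 26 kinases and adaptors, 1 rose and 5 fell at D16. Traf6, an adaptor that Cd40 and the interleukin 1 and Toll receptors share, rose from 3.61 ± 0.851 to 9.70 ± 1.21 FPKM (log2 change 1.22 ± 0.18, adjusted p = 3.17e-05). Map3k14, the kinase of the non-canonical arm, fell from 5.25 ± 0.561 to 1.97 ± 0.780 FPKM (-1.10 ± 0.20, adjusted p = 0.000228), and the change was -0.88 without D16 replicate 3 and not called. Irak2 (-1.47), Myd88 (-1.24) and Map3k3 (-1.20), of which the first pair serves the interleukin 1 and Toll receptors, also fell. Traf3, which holds Map3k14 in check, was at 22.1 ± 8.75 FPKM at D0 and 11.2 ± 2.27 FPKM at D16. Its change of -0.87 ± 0.27 was not called (adjusted p = 0.0119), and without D0 replicate 2 it was -1.12 and called. The kinase genes Chuk (-0.45 ± 0.23), Ikbkb (0.04 ± 0.14) and Ikbkg (-0.27 ± 0.12) and the adaptor and ligase genes Traf2 (-0.21 ± 0.18) and Birc2 (0.23 ± 0.17) did not pass the test.

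Of 15 ubiquitin ligases, deubiquitinases and feedback inhibitors, 1 rose and 2 fell. Below 5 FPKM on average at D0 and D16, Nlrc5 rose (log2 change 1.57) and Traf3ip2 fell (-1.47). Peli2, a ubiquitin ligase of the Toll pathway, fell from 6.02 ± 1.94 to 0.944 ± 0.275 FPKM (-1.83 ± 0.19, adjusted p = 1.00e-06). Cyld, a deubiquitinase that restrains NF-kB, was at 10.5 ± 1.02 and 6.85 ± 0.707 FPKM, and its change of -0.55 ± 0.18 was below the minimum. Peli1, the paralog of Peli2, was higher at D4 (16.7 against 7.83 FPKM, log2 change 1.05, adjusted p = 0.000324), a call that was lost without D0 replicate 2 at 0.79.

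Of 15 other receptors of the Cd40 family, 3 rose and 3 fell at D16 (20% each way), near the 16.6% and 18.7% of all tested genes. Tnfrsf19 was at 10.8 ± 4.82 FPKM at D0, 119 ± 29.0 at D4, 97.9 ± 47.1 at D8 and 54.4 ± 9.10 at D16 (log2 change at D16 2.32 ± 0.37, adjusted p = 6.26e-05). Tnfrsf22, a decoy receptor, rose from 2.39 ± 1.49 to 7.78 ± 1.84 FPKM (1.44 ± 0.27, adjusted p = 0.000279). It has a close neighbour and paralog in Tnfrsf23, so reads may be shared between them. Tnfrsf21 rose by 1.02 ± 0.33 (adjusted p = 0.0133), a call that was lost without D0 replicate 2 (0.49) and without D16 replicate 2 (0.98). Fas, the death receptor, fell from 38.0 ± 5.90 to 5.57 ± 2.64 FPKM (-2.64 ± 0.45, adjusted p = 0.000119). Ltbr, another receptor that feeds the non-canonical arm, fell from 38.9 ± 4.84 to 17.2 ± 4.57 FPKM (-1.15 ± 0.19, adjusted p = 6.94e-05), and was at -0.99 and not called after quantile normalization. At D4, Relt was called higher (1.14) and Eda2r lower (-1.26). The Relt call was lost without D4 replicate 3 at 0.98.

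Of 18 ligands of the family 3 passed the filter. Eda, the ectodysplasin ligand, rose from 2.89 ± 1.26 to 8.61 ± 0.399 FPKM (1.35 ± 0.19, adjusted p = 2.16e-05), and Tnfsf12, the ligand of Tnfrsf12a, fell from 14.7 ± 1.34 to 3.64 ± 1.62 FPKM (-1.82 ± 0.25, adjusted p = 1.75e-05).

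Of 11 genes of the interleukin 1 and Toll-like receptor arm 2 rose and 5 fell at D16. Tlr2, a receptor for bacterial lipoproteins, rose from 1.79 ± 0.571 to 5.41 ± 0.559 FPKM (1.22 ± 0.22, adjusted p = 0.000208). Tlr3, the receptor for double-stranded RNA, fell from 7.30 ± 0.981 to 0.718 ± 0.0991 FPKM (-2.27 ± 0.18, adjusted p = 5.56e-08). The cytokine Il33 (-2.65) and the receptor chain Il1rap (-1.64) also fell. Below 5 FPKM on average at D0 and D16, Il1rn rose (2.33), and Tlr1 (-1.64) and Tlr4 (-1.66) fell.

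At D16, 1 of 15 secreted targets rose and 6 fell (6.67% and 40%), and 0 of 22 membrane and intracellular targets rose and 8 fell (36.4%), beside 16.6% and 18.7% of all tested genes. The others were not called. The secreted target that rose was Mmp9, from 0.0666 to 1.52 FPKM on average (log2 change 1.21). Of those 22, 2 (Bcl2 and Psmb9) were higher at an unadjusted p below 0.05 in the same limma fit. Bcl2 (0.84 ± 0.23, adjusted p = 0.00493) was only under the minimum change, and Psmb9 (0.60 ± 0.27) had an adjusted p of 0.0655. Vcam1, an adhesion molecule like Icam1, fell from 102 ± 34.5 FPKM at D0 to 0.799 ± 0.355 FPKM (-5.80 ± 0.36, adjusted p = 3.88e-09). Csf1, the macrophage growth factor, fell from 191 ± 100 to 8.08 ± 3.42 FPKM (-4.34 ± 0.59, adjusted p = 1.25e-05). The chemokine genes Cxcl12 (-3.33) and Cx3cl1 (-2.53) and the protease gene Mmp3 (-2.28) fell, as did the proteoglycan gene Sdc4 (-3.28), the stress gene Gadd45b (-3.07) and the antigen-loading gene Tapbp (-1.93). The D0 libraries differed widely for Mmp3 (15.2 ± 17.8 FPKM), Cx3cl1 (52.5 ± 23.4 FPKM) and Gadd45b (59.4 ± 25.7 FPKM). At D4, the chemokine gene Cxcl1 was at 12.6 ± 0.735 FPKM against 1.05 ± 0.611 at D0 (2.77 ± 0.54, adjusted p = 0.00051) and at 1.93 ± 1.83 FPKM at D16. Ier3 was at 319 against 82.2 FPKM (1.92), Junb at 133 against 50.8 FPKM (1.37) and the complement gene C3 at 5.85 against 1.51 FPKM (1.64). The cytokine gene Lif (-1.58) and the survival genes Bcl2l1 (-1.46) and Tnfaip8 (-1.16) fell at D4. At D16 Lif was called lower too (-2.07). Bcl2l1 (-0.76) and Tnfaip8 (-0.97) had all D16 libraries below all D0 libraries but were under the minimum change. The difference between D4 and D16 was not tested.

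**Figure D4:**
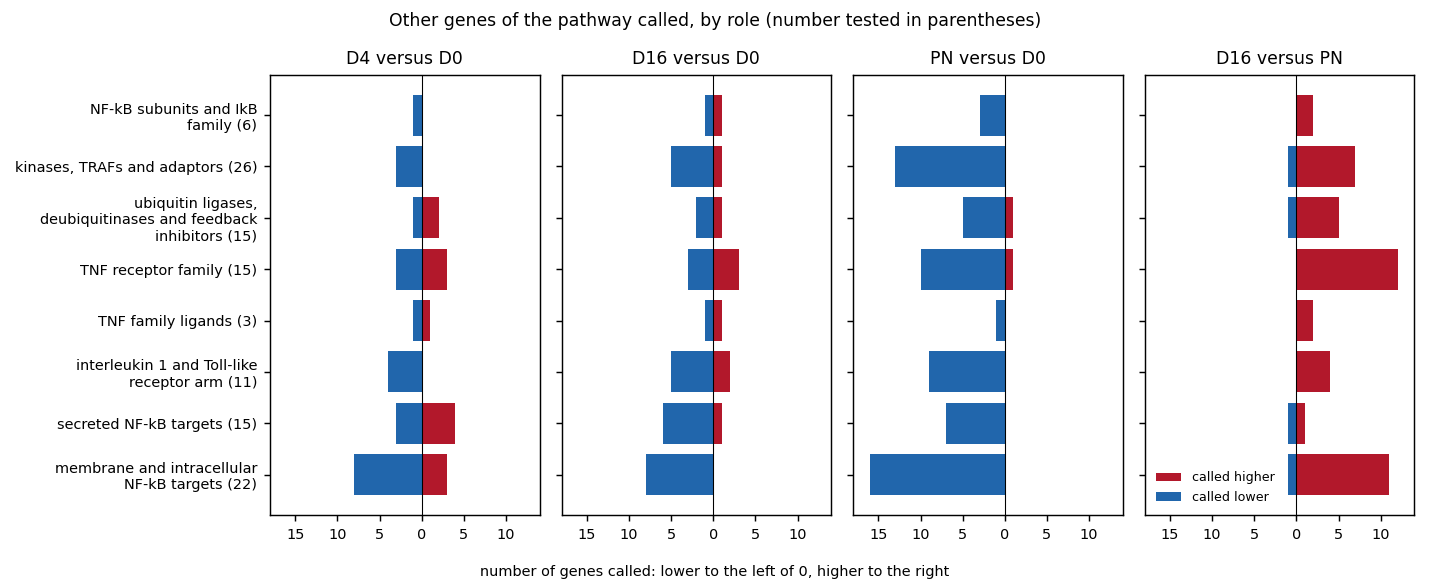
Bars count the tested genes of each role list called lower (left of 0) or higher (right of 0) in 4 comparisons. At D16 against D0 lower calls outnumber higher ones among targets, in PN against D0 nearly all calls are lower, and at D16 against PN nearly all are higher.

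In primary neurons a majority of the pathway's tested genes were lower than in astrocytes. Relative to D0, 2 of the 113 genes were higher in PN and 64 lower, or 1.77% and 56.6%, beside 17.1% and 23.9% of all tested genes. The median log2 change was -1.37, against -0.12 over all tested genes. The signalling genes Irak1 (-2.74 ± 0.15, adjusted p = 4.99e-10), Ripk1 (-2.40), Rela (-1.72), Nfkbiz (-1.71), Otud7b (-1.96) and Tnip1 (-1.50) fell. The receptor Tnfrsf1a, which binds tumour necrosis factor, was at 75.2 FPKM at D0 and 5.73 FPKM in PN (-3.51), and Tnfrsf12a at 434 and 14.7 FPKM (-4.85). Among targets, Csf1 (-5.18), Sdc4 (-4.53), Ier3 (-3.74), Gadd45b (-3.58) and Vcam1 (-2.95), named above for other comparisons, fell in PN. Ccl2 (-2.40), Plau (-1.96), Stat5a (-2.78) and Cflar (-2.63) fell as well. These groups did not overlap for any gene named here.

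Between D16 and PN, 44 of the 113 genes were higher at D16 and 4 lower, or 38.9% and 3.54%, beside 19.6% and 15% of all tested genes. The adaptors Ticam1 (17.7 against 1.20 FPKM, log2 change 3.08 ± 0.15, adjusted p = 5.02e-10) and Tradd (1.67) were higher at D16. So were the regulators Tank (1.22) and Tnip2 (1.27), the death receptor Tnfrsf10b (3.47), Tnfrsf23 (3.40), the survival gene Bcl2 (2.31) and the immunoproteasome subunit Psmb9 (1.83). Tnfrsf12a (4.85) and Ier3 (4.09), named above, were higher as well. The 4 genes lower at D16 were Vcam1 (0.799 against 13.5 FPKM, -2.84), Cx3cl1 (7.94 against 38.0 FPKM, -2.04), Peli2 (0.944 against 4.16 FPKM, -1.42) and Traf4 (13.3 against 28.8 FPKM, -1.08). The groups did not overlap for Vcam1, Cx3cl1, Peli2 and Traf4. The call of Traf4 was lost without D16 replicate 2 (-0.91) and without PN replicate 3 (-0.99).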

How the data were processed

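RNA was sequenced as paired reads, and the authors deposited 1 table of FPKM (fragments scaled to transcript length and library size) for 24346 genes in 15 libraries. The genome build named is mm10 (GRCm38), per the submitters' processing notes. The tools for alignment and quantification are not given in the sources used here. Each of the 15 columns carried a sample's title, and 0 columns were left unused. Groups came from the labels. Genes with at least 1 FPKM in 3 libraries (13983) were fitted with limma 3.58.1 (R 4.3.3) on log2(FPKM + 1), with a mean for each of 5 groups, a variance trend and 10 residual degrees of freedom. P-values were adjusted by Benjamini-Hochberg over all tested genes, and a call needed an adjusted p below 0.05 with a log2 change of 1 or more in size. The script was tested on simulated data.

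The members and lists were chosen with earlier results of these data known. Named were all members, a fixed panel of central pathway genes, and in each role list the called genes with the largest changes, without overlap and with at least 5 FPKM in the higher group: up to 4 in each direction for D16 against D0, then up to 2 more for D4 and PN against D0 and D16 against PN, passing over genes already named. Some of those passed over were added after their values were seen. So were Nfkbie, Nlrc5, Traf3ip2, Il1rn, Tlr1, Tlr4 and Mmp9, which lay below 5 FPKM. They were not followed under the alternatives and are not among the named genes meant below. Genes most like a member were ranked by Pearson correlation over the 15 libraries, among tested genes with at least 5 FPKM in 3 libraries. Alternatives were a pseudocount of 0.1, other filters, rescaled totals, quantile normalization, a replicate block, no minimum change and each library left out. Correlations across libraries carry no p-value. Positions and promoters are from RefSeq (GRCm38.p6). Deviations of same-numbered libraries of the tested comparisons correlated at -0.135 to 0.275. For D0 and D8 the values were 0.0140 to 0.275, against -0.259 to 0.119 for different numbers. FPKM holds no read number, so no counting intervals were given.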

Additional observations from a re-analysis of the deposited data

Results flagged for a closer look

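Tlr2 was called in opposite directions in the induced cells and the primary neurons, each against D0. It was at 1.79 ± 0.571 FPKM at D0, 5.41 ± 0.559 at D16 and 0.103 ± 0.151 in PN (SD, n = 3). The log2 change was 1.22 ± 0.22 (SE) at D16 and -1.33 ± 0.22 in PN. The test of the difference itself, D16 against PN, gave 2.54 ± 0.22 with an adjusted p of 1.41e-07 (limma), and all 3 D16 libraries lay above all 3 PN libraries. Both comparisons share the D0 libraries.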

How the results depend on the processing

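With no minimum on the change, the calls over all tested genes were 7587 at D4, 8340 at D8, 8775 at D16 and 9067 in PN against D0, and 8678 for D16 against PN. Those among the other pathway genes were 73, 80 and 72 at D4, D8 and D16 and 76 for D16 against PN, since small changes then count. With at least 5 FPKM in 3 libraries, which tests fewer genes, 27 pathway genes were called at D16 against D0. Leaving out 1 library at a time gave 3639 to 3962, 4294 to 4571, 4667 to 5103 and 5440 to 5765 calls over all genes at D4, D8, D16 and PN against D0, and 4598 to 4943 for D16 against PN. Pathway calls were 35 to 42, 37 to 42, 38 to 45, 64 to 69 and 45 to 53. The only reversals among the named genes were of Ikbkb and Cxcl1 at D16 against D0, neither of them called, which ranged from -0.0846 to 0.138 and from -0.128 to 0.864 as single libraries were left out. Ikbkb was -0.00258 with D16 replicate 2 and PN replicate 3 both removed, an alternative chosen after seeing the data, under which 40, 67 and 59 pathway genes were called at D16 and PN against D0 and D16 against PN. With the replicate block 37, 42, 42, 66 and 49 pathway genes were called, and no named gene's call changed. Of 480 values of the members under the alternatives 23 moved, 21 of them with a pseudocount of 0.1. Cd40 was then at 7.03, 8.64 and 8.79 at D4, D8 and D16. Rescaling to equal totals moved the median of all tested genes in PN from -0.12 to -0.01. FPKM holds no depth, so changes between low values, such as Cd40 and Bcl3 in PN, cannot be given a counting error.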
